A study of Homo sapiens with 42 samples.

Results

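The 8 genes described here, ZEB1, ZEB2, EPCAM, CDH1, CDH2, VIM, SNAI2 and TWIST1, are used to place cells between an epithelial and a mesenchymal state. They were chosen by name, and all 8 were found among the 20515 genes with a symbol in the authors' table of normalised read counts. The table holds 42 RNA-seq libraries of HAP1 cells, an adherent, near-haploid human line derived from a chronic myeloid leukaemia line. The knockout groups were neil1 and neil2 (3 libraries per treatment each) and neil3 and neil123 (4 libraries per treatment each), deficient for the DNA glycosylases NEIL1, NEIL2, NEIL3 or, going by the name, all of them. The wt group had 7 libraries per treatment. NEIL enzymes cut oxidised bases out of DNA. Cells of each genotype had 200 µM BSO (buthionine sulfoximine, an inhibitor of glutathione synthesis) or media alone for 48 h, and the design asks how loss of these enzymes and BSO change the transcriptome.

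Library names fell into an unlettered set (neil1, neil2 and the wt libraries 1.1, 1.3 and p1) and a lettered set, where each name has a number and a biological replicate A or B (neil3, neil123 and wt; 1A below stands for number 1, replicate A). Each knockout was therefore set against the wt libraries of its own set and treatment. The neil1 libraries are named biol_rep12, biol_rep13.1 and biol_rep13.2 and the neil2 libraries biol_rep11.1, biol_rep11.2 and biol_rep12. In the knockouts, the number before any point or letter is called a line below, which gives 2 lines per knockout. In wt, 1.1, 1.3 and p1 are each taken as a line. The labels do not use that word, and they say neither how the cells were made deficient nor whether they are clones. The labels call the knockout and lettered wt libraries biological replicates, but not the unlettered wt libraries. The p-values therefore measure the spread between libraries, which may in part be technical. Libraries held 26.8 to 30.7 M reads in named genes. NEIL2 was lower in neil2 than in wt in media (311 ± 14.7 against 554 ± 63.2 normalised reads, SD, n = 3 each), NEIL2 and NEIL3 were lower in neil123, and NEIL1 was lower in neither neil1 nor neil123 (limma's trend test, adjusted over all genes). In neil123 NEIL1 averaged 987 normalised reads in media and 990 with BSO, against 852 and 871 in lettered wt. NEIL3 averaged 520 normalised reads in neil3 in media, against 640 in lettered wt, and was not called.

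In an epithelial state, cells are joined by E-cadherin (CDH1) and carry the adhesion protein EPCAM. In a mesenchymal state they carry N-cadherin (CDH2) and the intermediate filament protein vimentin (VIM). The zinc finger factors ZEB1, ZEB2 and SNAI2 (also called SLUG) bind E-boxes with the letters CACCTG and repress CDH1, and the basic helix-loop-helix factor TWIST1 acts in the same transition. White blood cells carry vimentin and mostly lack CDH1; HAP1 cells come from a blood cell line but grow attached.

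The genes for the mesenchymal proteins were abundant, and the E-cadherin gene was at the limit of counting. EPCAM lay between them and varied most among the 6 genes with a mean of 10 or more. Per kb of exon, over the 42 libraries, VIM averaged 3166, CDH2 844, TWIST1 157, ZEB1 132, ZEB2 47.2 and EPCAM 21.4 normalised reads. The ranges of TWIST1 and ZEB1 overlapped on this scale, as did those of ZEB2 and EPCAM, while other neighbours in this order did not overlap. Without the division by length the means were 16329 normalised reads for VIM, 4180 for CDH2, 1182 for ZEB2, 1145 for ZEB1, 319 for TWIST1 and 53.9 for EPCAM. EPCAM's highest library was 84.6-fold above its lowest, whereas ZEB1 spanned 1.47-fold and ZEB2 1.59-fold.

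**Figure D1:**
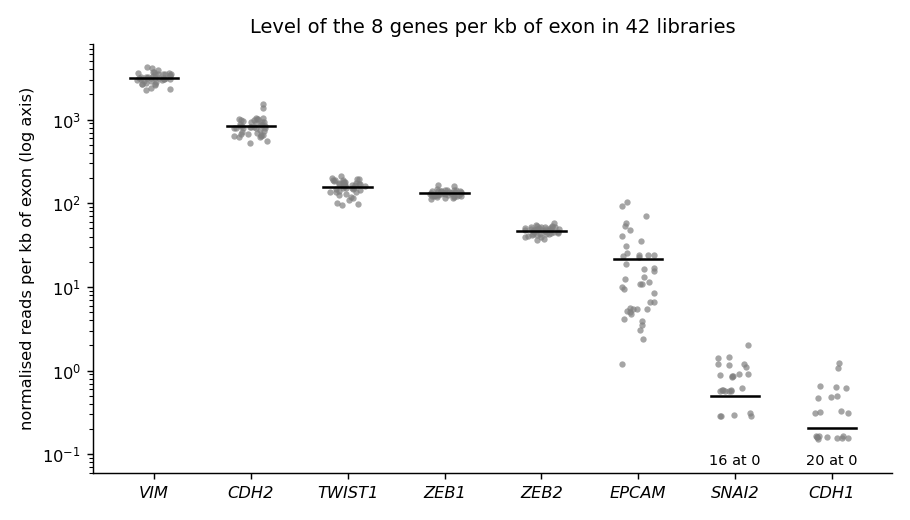
Normalised reads per kb of exon (log axis) for each of the 8 genes, with 1 point per library, a bar at the mean of 42 libraries and the number of libraries at 0. VIM and CDH2 lie highest, and SNAI2 and CDH1 lie near or at 0. EPCAM is spread most widely among the 6 genes with a mean of 10 or more.

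CDH1 and SNAI2 had means under 10 (1.26 and 1.69 normalised reads) and were too low to judge, so no fold change or test is given for them. CDH1 had 54 reads in all 42 libraries together, with no read in 20 libraries and at most 8 in one. By genotype these were 22 reads in 6 neil1 libraries, 11 in 6 neil2 libraries, 4 in 8 neil3 libraries, 2 in 8 neil123 libraries and 15 in 14 wt libraries. SNAI2 had 72 reads in all and none in 16 libraries. Its reads numbered 11 in the neil1, 3 in the neil2, 23 in the neil3 and 7 in the neil123 libraries, against 28 in the wt libraries. A count of 0 in a library allows up to 3 reads there, by counting error alone.

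Other genes of the tissue states gave a mixed picture of HAP1 cells. KRT18, an epithelial keratin gene, averaged 579 normalised reads per kb and the junction gene CLDN3 234, while SPARC, a matrix gene of mesenchymal cells, averaged 1318. PTPRC, the pan-leukocyte gene CD45, averaged 0.0698 normalised reads per kb and GATA1 0.349, whereas the blood regulators GATA2 (414) and TAL1 (201) were abundant on that scale.

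On the GENCODE annotation of GRCh38, the build that the submitters' processing notes name, ZEB1 lies at chr10:31318495-31529814 and VIM at chr10:17228259-17237593, both on the plus strand. EPCAM lies at chr2:47345158-47387601 and CDH1 at chr16:68737225-68835548, also on the plus strand. On the minus strand lie ZEB2 at chr2:144364364-144524583, CDH2 at chr18:27950966-28177446 and TWIST1 at chr7:19020991-19117672. Antisense genes overlap ZEB1 (ZEB1-AS1, mean 124 normalised reads), VIM (VIM-AS1, 22.3) and ZEB2 (ZEB2-AS1, 1.51), and the strand setting of the counting is not given in the sources used here, so their reads cannot be fully told apart. The pseudogene SPTLC1P1 (59.4) lies within ZEB1.

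RefSeq promoter entries (GRCh38.p14) matched 4 of the 8 genes, namely ZEB1, ZEB2, CDH2 and VIM. The 250 bases before the start nearest to the annotated gene start are printed for CDH2 and VIM, whose levels moved together most closely, and for ZEB1, whose window alone among the 4 holds CACCTG. The motifs were searched on both strands: CACCTG, the GC box of SP1 (GGGCGG) and the AP-1 site (TGANTCA), and capitals mark matches in either orientation, none of which overlap.
CDH2, chr18:28177131-28177380, minus strand: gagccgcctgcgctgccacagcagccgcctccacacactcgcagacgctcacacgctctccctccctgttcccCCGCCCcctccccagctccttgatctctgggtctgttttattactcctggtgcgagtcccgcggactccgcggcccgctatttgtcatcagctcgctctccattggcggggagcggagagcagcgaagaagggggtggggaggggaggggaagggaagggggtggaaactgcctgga
VIM, chr10:17227991-17228240, plus strand: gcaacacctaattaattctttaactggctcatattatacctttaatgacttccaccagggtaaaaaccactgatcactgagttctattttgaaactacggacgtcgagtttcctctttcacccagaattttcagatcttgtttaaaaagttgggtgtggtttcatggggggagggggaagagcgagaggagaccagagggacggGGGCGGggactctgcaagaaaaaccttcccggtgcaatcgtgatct
ZEB1, chr10:31318167-31318416, plus strand: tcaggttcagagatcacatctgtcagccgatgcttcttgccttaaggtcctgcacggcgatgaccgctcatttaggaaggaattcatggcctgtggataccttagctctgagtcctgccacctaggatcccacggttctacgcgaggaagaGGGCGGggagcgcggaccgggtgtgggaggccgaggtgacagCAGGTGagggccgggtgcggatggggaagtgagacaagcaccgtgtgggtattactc
CDH2 and VIM each hold 1 GC box, starting 177 and 46 bases before the RefSeq start used, and ZEB1 holds 1 GC box and 1 CACCTG. The ZEB2 window (chr2:144520120-144520369) held none of these letters. The ZEB2 and CDH2 windows lie within the annotated genes rather than before their starts, while the ZEB1 and VIM windows lie before the gene starts. Among 35116 RefSeq windows of the same length, 17.49% hold CACCTG, 42.64% GGGCGG and 6.57% TGANTCA, so these matches are common and only describe the letters.

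EPCAM, which codes for a homophilic adhesion protein of epithelial cells, differed most between genotypes. In media it fell in neil2, where libraries biol_rep11.1, biol_rep11.2 and biol_rep12 had 7.75, 21.5 and 29.01 normalised reads, against 61.3, 88.5 and 61.2 in wt libraries 1.1, 1.3 and p1. All neil2 libraries lay below all wt libraries. The log2 difference was -1.96 ± 0.545 (SE), with an adjusted p of 0.0184 in limma's trend test. With BSO, EPCAM had 13.09, 13.8 and 39.0 normalised reads in neil2, against 58.99, 102 and 47.5 in wt, again without overlap (log2 difference -1.72 ± 0.545, adjusted p = 0.0286, limma).

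EPCAM also fell in neil123. In media, libraries 1A, 1B, 2A and 2B had 11.95, 10.4, 9.87 and 3.05 normalised reads, against 58.1, 27.4, 76.9 and 16.7 in wt libraries 1.1A, 1.1B, 1.3A and 1.3B. The groups did not overlap, and the log2 difference was -2.12 ± 0.472 (adjusted p = 0.0037, limma). With BSO the values were 14.02, 12.5, 13.6 and 6.03 in neil123, against 61.5, 27.0, 63.4 and 41.8 in wt, with a log2 difference of -1.96 ± 0.472 (adjusted p = 0.00723, limma). These are 3 to 14 reads per neil123 library, so counting error is a large part of the spread there. In bulk RNA, fewer cells with EPCAM and less EPCAM RNA per cell cannot be told apart.

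Higher values stood in neil1, without passing the test. EPCAM had 176, 136 and 258 normalised reads in neil1 libraries biol_rep12, biol_rep13.1 and biol_rep13.2 in media, against 61.2 to 88.5 in wt, and 120 to 234 with BSO, against 47.5 to 102 in wt. Groups did not overlap in either treatment, yet the log2 differences of 1.39 ± 0.545 and 1.27 ± 0.545 had adjusted p-values of 0.282 and 0.429 (limma). In neil3 the media libraries had 8.74 to 42.3 normalised reads, against 16.7 to 76.9 in wt, and the BSO libraries 13.9 to 33.3, against 27.0 to 63.4. The neil3 groups overlapped with wt, at log2 differences of -0.77 and -1.01 (adjusted p = 1 for each, limma).

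**Figure D2:**
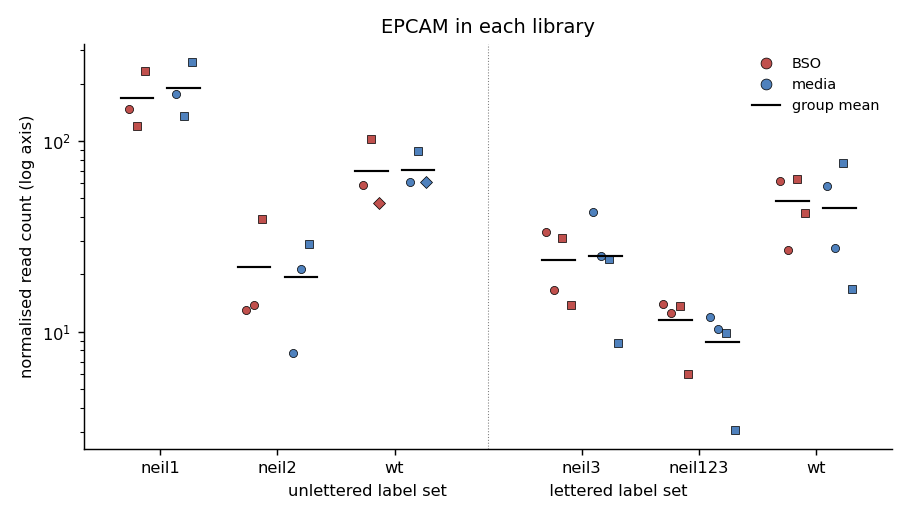
EPCAM normalised read count (log axis) in each library by genotype, with BSO in red, media in blue, a bar at each group mean, and circles, squares and diamonds for the lines of a genotype in name order. In both treatments the neil2 and neil123 libraries lie below the wt libraries of their own label set, and the neil1 libraries lie above them.

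The estimated decrease of EPCAM differed in size between lines, but a difference between lines was not tested. In neil2, line 11 alone (without line 12) gave log2 differences of -2.33 in media (adjusted p = 0.00586, limma) and -2.21 with BSO (0.00636). Line 12, which has 1 library per treatment, gave -1.23 and -0.74. In neil123, line 2 alone gave -2.56 (adjusted p = 0.0105) and -2.21 (0.0305), and line 1 alone gave -1.69 (0.11) and -1.72 (0.0777). The neil123 lines overlapped with BSO, at 12.5 to 14.02 normalised reads in line 1 and 6.03 to 13.6 in line 2. Of single libraries, leaving out neil2 biol_rep11.1 (-1.44, adjusted p = 0.123), neil2 biol_rep11.2 (-2.12, 0.0533), wt 1.1 (-2.05, 0.0594) or wt 1.3 (-1.79, 0.0724) ended the neil2 call in media. With BSO, leaving out neil2 biol_rep11.1 (-1.46, 0.128), neil2 biol_rep11.2 (-1.50, 0.132), wt 1.1 (-1.80, 0.0558) or wt 1.3 (-1.41, 0.122) did the same. No single library ended the neil123 calls, but 1 mean per line did with BSO (adjusted p = 0.0637), and a fit of only the compared groups ended both neil2 calls.

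Within the lettered set, EPCAM went with the replicate letter. In all 12 pairs of replicates A and B of the same line and treatment, A was higher, by a median log2 difference of 1.06, and A was higher in all 12 pairs for 5.70% of all tested genes. The labels do not say whether A replicates of different genotypes were handled together. Among A libraries in media, EPCAM was 9.87 to 11.95 in neil123, against 58.1 to 76.9 in wt, and among B libraries 3.05 to 10.4, against 16.7 to 27.4, so neil123 was below wt within each letter. With BSO the neil123 values were 13.6 to 14.02 against 61.5 to 63.4 in wt among A libraries, and 6.03 to 12.5 against 27.0 to 41.8 among B libraries. For neil3, B libraries in media overlapped with wt (8.74 to 25.0 against 16.7 to 27.4), while A libraries (24.0 to 42.3 against 58.1 to 76.9) and the BSO libraries of each letter did not.

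CDH2 and VIM, for N-cadherin and vimentin, did not differ from wt by the test in any knockout or treatment. CDH2 in media averaged 4941 ± 1636 normalised reads in neil1 and 4771 ± 234 in neil2, against 4285 ± 348 in wt (SD, n = 3 each). In the lettered set it averaged 3213 ± 623 in neil3 and 3841 ± 551 in neil123, against 3615 ± 572 in wt (SD, n = 4 each). VIM in media averaged 16762 ± 3877 in neil1 and 16639 ± 1472 in neil2, against 15586 ± 272 in wt, and 14886 ± 2740 in neil3 and 16790 ± 1092 in neil123, against 14614 ± 1823 in wt. Groups overlapped in all of these, and the largest log2 difference in media was 0.21 ± 0.129, for VIM in neil123 (adjusted p = 0.431, limma). With BSO the log2 differences from wt lay between -0.16 and 0.12 for CDH2 and between -0.09 and 0.22 for VIM.

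Lines of a knockout differed in both genes. CDH2 had 6828 normalised reads in neil1 line 12 in media, against 4064 and 3931 in line 13, and 7635 with BSO, against 4649 and 3975. VIM did likewise, with 21207 and 22134 in line 12 and 14080 to 16515 in line 13. In neil3 it was line 2 that was higher, with VIM at 15703 to 18296 in media, against 11968 to 13576 in line 1. A libraries were higher than B libraries in all 12 pairs for CDH2 (median log2 difference 0.33) and for VIM (0.18). Among B libraries in media VIM was 16111 to 16341 in neil123, against 12426 to 13800 in wt, and among A libraries 16286 to 18421, against 16024 to 16205.

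With the letter as a block in a fit of only the compared groups, some further differences passed. VIM was then higher in neil123 in media (log2 difference 0.21, adjusted p = 0.0408, limma) and with BSO (0.22, 0.0304), TWIST1 was lower in neil123 with BSO (-0.36, 0.0371), and EPCAM was lower in neil3 with BSO (-1.01, 0.049). That fit called 0.830% of genes for neil3 in media, 0.830% for neil3 with BSO, 9.83% for neil123 in media and 15.69% for neil123 with BSO. A letter term in the fit of all 42 libraries did not call these 4 differences.

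The levels of CDH2 and VIM moved together across libraries. After subtraction of each label set's mean on the log2(value + 1) scale, Pearson's r between them was 0.905 over 42 libraries, 0.921 over the 18 unlettered and 0.902 over the 24 lettered libraries. With each group's mean subtracted it was 0.931. The libraries share lines, letters and replicate names, so this describes these libraries, and no p is given. VIM was the tested gene most like CDH2, followed by LIMCH1 (r = 0.889) and PRSS23 (0.875), and GPR19 (0.882) and EMP1 (0.879) came next to CDH2 in likeness to VIM. With label-set means subtracted, other pairs of the 6 genes reached at most 0.49 in size for positive r (EPCAM with TWIST1), and the lowest r was -0.52 (ZEB1 with EPCAM). EPCAM with TWIST1 had 0.756 in the unlettered and 0.17 in the lettered set, and -0.122 with group means subtracted. ZEB1 with ZEB2 had 0.477 with label-set means and 0.717 with group means subtracted.

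**Figure D3:**
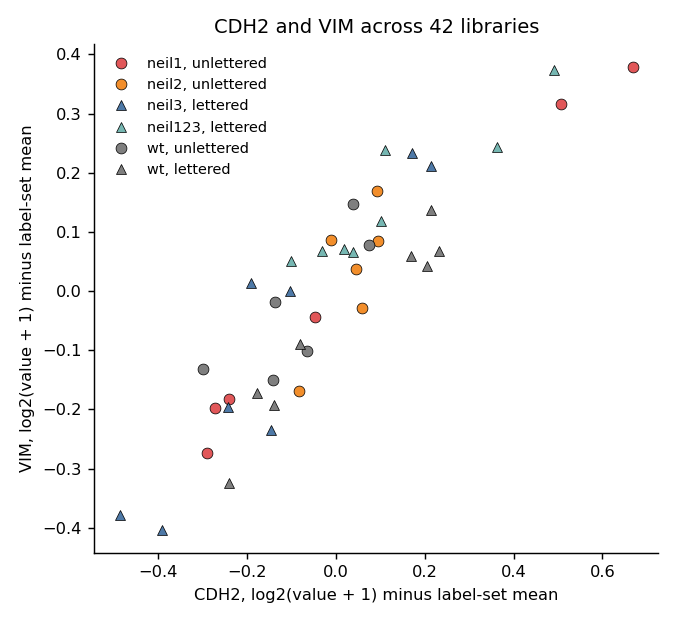
CDH2 on the x axis and VIM on the y axis, each as log2(value + 1) minus the mean of the library's label set, with 1 point per library, coloured by genotype and shaped by label set. The points lie along a line, with neil1 line 12 at the upper right and neil3 line 1 at the lower left.

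ZEB2, a repressor of CDH1, was the gene of this set that differed in neil3. In media, neil3 libraries 1A, 1B, 2A and 2B had 912, 981, 945 and 1053 normalised reads, against 1084, 1215, 1113 and 1128 in wt libraries 1.1A, 1.1B, 1.3A and 1.3B. All neil3 libraries lay below all wt libraries, at a log2 difference of -0.22 ± 0.05 (adjusted p = 0.0271, limma). With BSO the values were 979, 1084, 1018 and 1060 in neil3, against 1144, 1280, 1185 and 1196 in wt, with a log2 difference of -0.21 ± 0.05 (adjusted p = 0.0415, limma). Within letters the log2 differences in media were -0.24 among A and -0.20 among B libraries, and with BSO -0.22 and -0.21.

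The ZEB2 calls in neil3 were near the threshold. In media they were lost without any one of neil3 1A (-0.19, adjusted p = 0.17), 1B (-0.23, 0.065) and 2A (-0.21, 0.0995) or wt 1.1B (-0.19, 0.202), 1.3A (-0.23, 0.0519) and 1.3B (-0.23, 0.0729). With BSO the call was lost without neil3 1A (-0.19, 0.202), 2A (-0.21, 0.129) or 2B (-0.23, 0.0693), or wt 1.1B (-0.18, 0.267), 1.3A (-0.22, 0.0914) or 1.3B (-0.22, 0.103). With the letter as a block in the compared groups alone, the adjusted p was 0.0778 in media and 0.0463 with BSO. With 1 mean per line it was 0.372 in media and 0.623 with BSO, and in a fit of only the compared groups 0.344 and 0.225. The sign was the same in each of these.

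In neil2 with BSO, ZEB2 was higher than in wt. Libraries biol_rep11.1, biol_rep11.2 and biol_rep12 had 1453, 1330 and 1350 normalised reads, against 1241, 1227 and 1205 in wt libraries 1.1, 1.3 and p1, without overlap (log2 difference 0.17 ± 0.058, adjusted p = 0.0438, limma). In media the groups overlapped, at 1215 to 1303 in neil2, against 1254 to 1392 in wt (log2 difference -0.07 ± 0.058, adjusted p = 0.437). Leaving out neil2 biol_rep11.1 (0.13, 0.204), neil2 biol_rep11.2 (0.19, 0.0679) or wt 1.1 (0.18, 0.0749), 1.3 (0.17, 0.0853) or p1 (0.16, 0.137) ended the call with BSO. In neil1 and neil123 ZEB2 lay within -0.10 and 0.06 of wt on the log2 scale in each treatment.

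ZEB1, the closest relative of ZEB2, was not called against wt in any knockout. In neil1 in media ZEB1 had 1148, 1061 and 1039 normalised reads, against 1436, 1395 and 1231 in wt. The wt libraries stood apart: the other 39 libraries ranged from 977 to 1267 and none of them reached the upper 2 of these. The groups did not overlap, and the log2 difference of -0.32 ± 0.077 had an adjusted p of 0.0574 (limma). The call passed in edgeR's quasi-likelihood test with TMM scaling or with the deposited size factors, with columns of equal totals, without neil1 line 12, and without wt p1 (log2 difference -0.39, adjusted p = 0.0113), and over all alternatives the adjusted p ranged from 0.0113 to 0.322. In neil2 in media ZEB1 was 1139 to 1262 (log2 difference -0.17, adjusted p = 0.162). With BSO the log2 differences were -0.12 in neil1 and 0.05 in neil2, and in neil3 and neil123 it lay within -0.05 and 0.07 of wt in each treatment.

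The same wt libraries are the baseline of other ZEB1 values. In media ZEB1 was 1077 to 1246 in lettered wt, against 1231 to 1436 in unlettered wt (log2 difference -0.27, adjusted p = 0.00331, limma), and ZEB2 was 1084 to 1215, against 1254 to 1392 (-0.21, 0.00191). That comparison of control cells between label sets called 39.13% of all tested genes and 2 of the 6 genes tested here. The neil1, neil2, BSO and label-set comparisons that use the unlettered wt media libraries share those controls and are not independent of each other.

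TWIST1, for a basic helix-loop-helix factor of mesoderm and neural crest, did not differ from wt by the test in any knockout. In neil2 in media, line 11 had 196 and 204 normalised reads and line 12 had 349, against 274 to 308 in wt, and with BSO line 11 had 198 and 223 and line 12 had 328, against 307 to 372 in wt. Line 11 alone was lower than wt, at log2 differences of -0.52 in media (adjusted p = 0.0359, limma) and -0.69 with BSO (0.00365), and without library biol_rep12 of the BSO group that comparison was also called (-0.69, 0.0123). Line 12 lay above all wt libraries in media and within their range with BSO. In neil123 TWIST1 averaged 286 ± 44.9 in media and 287 ± 40.4 with BSO, against 358 ± 76.6 and 370 ± 49.9 in wt (SD, n = 4 each), with overlap and adjusted p-values of 0.326 and 0.18. B libraries were higher than A libraries in 11 of 12 pairs.

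**Figure D4:**
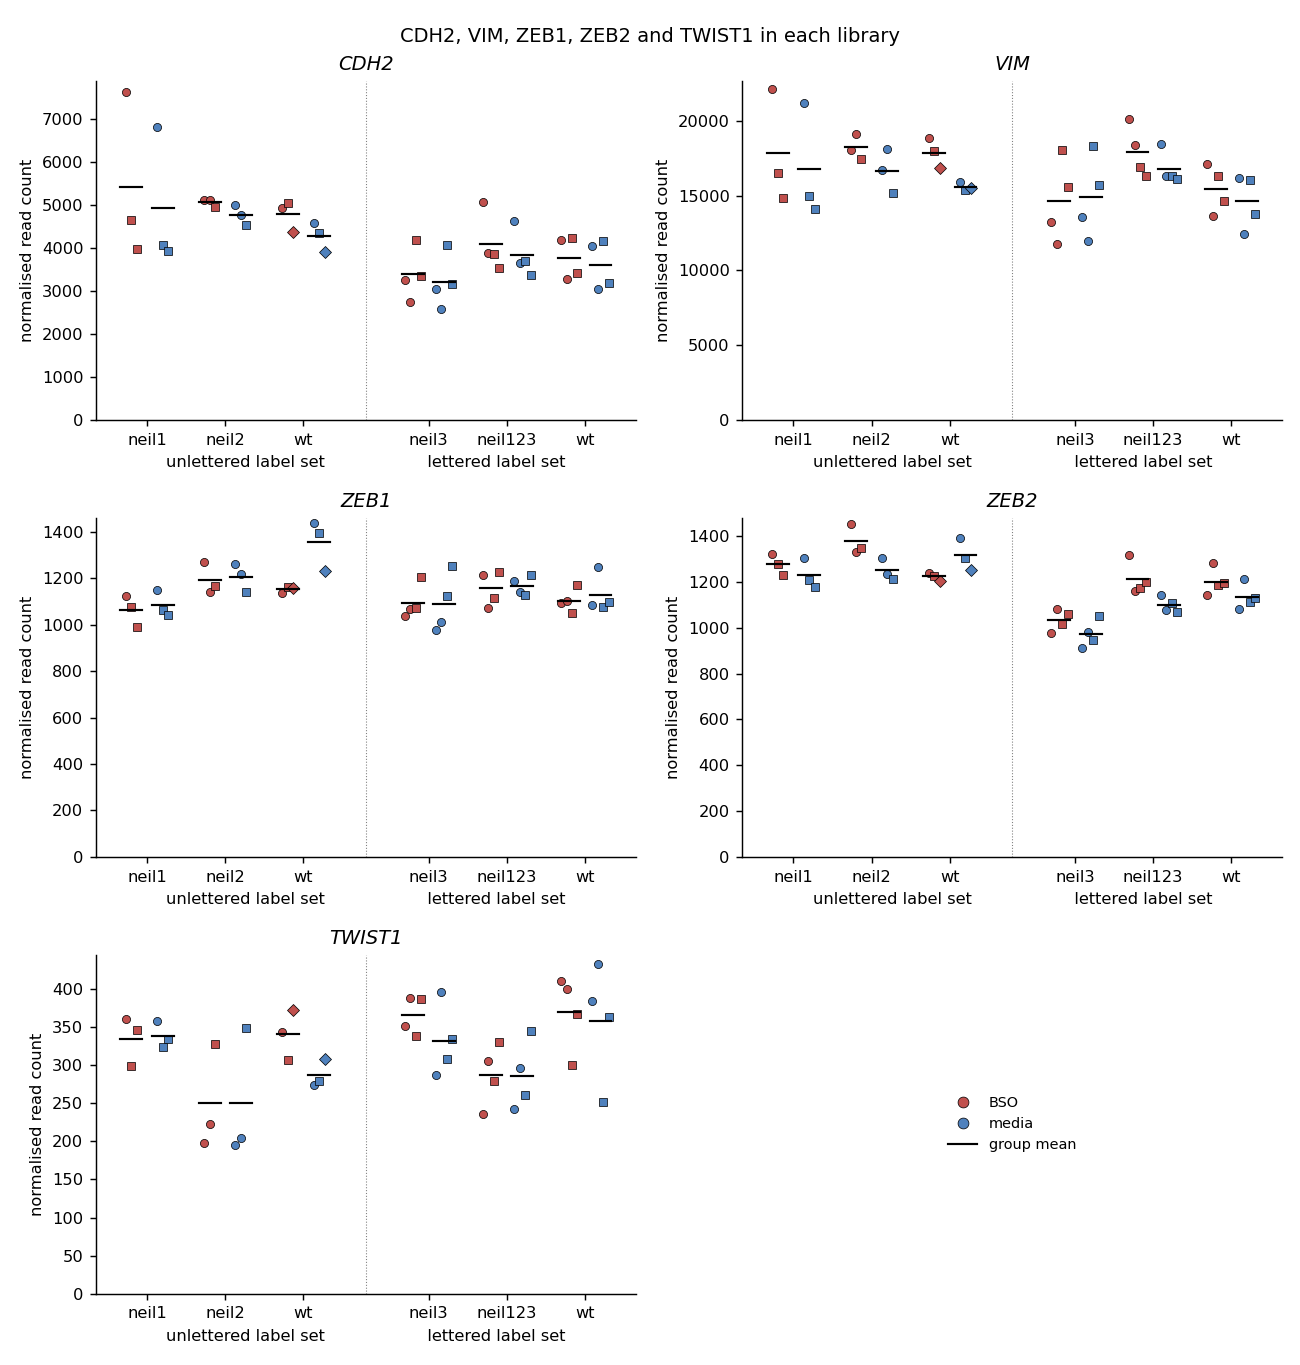
Normalised read counts of CDH2, VIM, ZEB1, ZEB2 and TWIST1 in each library by genotype, with BSO in red, media in blue, a bar at each group mean, and circles, squares and diamonds for the lines of a genotype in name order; axes start at 0. The unlettered wt media libraries are high for ZEB1, the neil3 libraries are low for ZEB2, and 1 neil1 line is high for CDH2 and VIM.

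Counts of the 6 genes called stand beside the share of all tested genes called in the same comparison. Of the 6 genes with a mean of 10 or more, 1 was called in neil2 in media (EPCAM), where 10.96% of 14331 genes were called, and 2 with BSO (EPCAM and ZEB2), where 15.81% were. In neil123 1 of 6 was called in each treatment (EPCAM), beside 5.34% of all genes in media and 8.09% with BSO. In neil3 1 of 6 was called in each (ZEB2), beside 0.440% and 0.405%, and in neil1 none, beside 0.300% and 0.202%. For neil1, 1748 and 1418 of all genes had an unadjusted p under 0.05 in media and with BSO, and edgeR with TMM called 50 and 33.

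Differences between BSO and media were small. CDH2 was higher with BSO than in media in all 21 pairs of libraries with the same name, by log2 differences of 0.02 to 0.22, and in 20 of 21 with columns scaled to equal totals. Of all tested genes 3.49% were higher in all 21 pairs. VIM was higher in 17 of 21 pairs (18 with equal totals), and the pairs in which it was lower were the 4 of neil3. TWIST1 was higher with BSO in 15 pairs, EPCAM in 11 and ZEB1 in 9 (13, 11 and 8 with equal totals). The share of all tested genes that reach the counts of VIM and TWIST1 is not given here. It is at least 12.61%, the share higher in 18 or more pairs. In the fit without a block, neither CDH2 nor VIM was called in any genotype.

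ZEB2 was higher with BSO in 18 of 21 pairs, also with equal totals, and the other 3 were the unlettered wt pairs. Of all tested genes 12.61% were higher in 18 or more pairs. In neil123 it had 1317, 1159, 1172 and 1201 normalised reads with BSO, against 1142, 1076, 1107 and 1067 in media, without overlap. In unlettered wt it had 1241, 1227 and 1205 with BSO, against 1392, 1304 and 1254 in media, also without overlap but in the other direction. ZEB1 in unlettered wt had 1135, 1161 and 1159 with BSO, against 1436, 1395 and 1231 in media, and was called lower (log2 difference -0.23 ± 0.077, adjusted p = 0.0463, limma). Leaving out wt 1.1 with BSO (-0.22, adjusted p = 0.136), 1.3 with BSO (-0.24, 0.0955), p1 with BSO (-0.24, 0.0881), 1.1 in media (-0.19, 0.233) or 1.3 in media (-0.21, 0.19) ended that call.

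**Figure D5:**
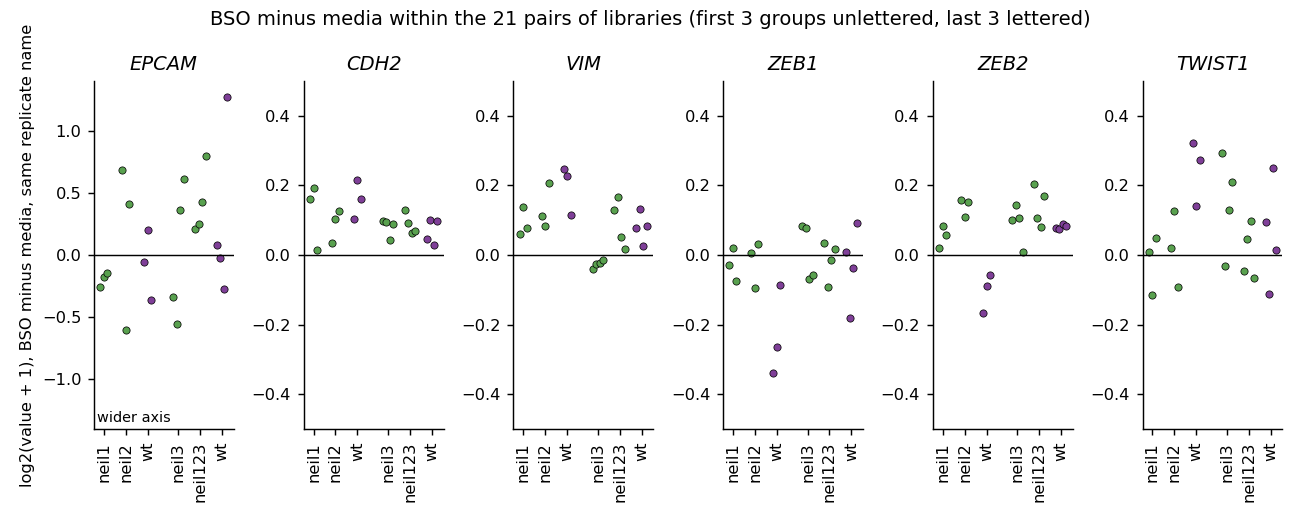
Differences in log2(value + 1), BSO minus media, for the 21 pairs of libraries with the same name, by genotype and label set, with knockouts in green and wt in purple; EPCAM has a wider axis. CDH2 lies above 0 in all 21 pairs, and ZEB2 lies below 0 in the 3 unlettered wt pairs and above 0 in the other 18.

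That ZEB1 decrease was the only one of the 6 genes called for BSO against media, in unlettered wt, where 11.16% of all genes were called. None was called in lettered wt (5.62% of genes), neil1 (1.29%), neil2 (0.174%), neil3 (6.64%) or neil123 (1.70%). With the replicate name as a block, which uses the pairing of libraries, more differences passed, as did more genes in all: 31.71% in unlettered wt, 22.96% in lettered wt, 11.03% in neil1, 8.46% in neil2, 23.99% in neil3 and 11.67% in neil123. In unlettered wt, CDH2 (log2 difference 0.16, adjusted p = 0.000911), VIM (0.20, 0.00012) and TWIST1 (0.25, 0.0149) were then higher with BSO and ZEB1 was lower. CDH2 was higher in neil1 (0.12, 0.0217), VIM in neil2 (0.13, 0.0181), and ZEB2 in neil2 (0.14, 0.031) and neil123 (0.14, 0.00782), all by limma.

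The BSO change in a knockout minus that in wt was called for none of the 6 genes in the fit without a block, nor for any other gene (0.00% in each of the 4 knockouts). Unadjusted p-values under 0.05 were held by 944 genes for neil1, 1468 for neil2, 124 for neil3 and 255 for neil123, and edgeR with TMM called 1, 2, 0 and 0 genes. For ZEB2 in neil2 the difference of changes was 0.24 ± 0.082 (adjusted p = 0.288, limma). With the replicate name as a block its adjusted p was 0.00882, in a fit that called 10.40% of genes for neil2, 2.21% for neil1, 0.00% for neil3 and 0.0349% for neil123. The neil2 value rests on ZEB2 being higher with BSO in 3 of 3 neil2 pairs and lower in 3 of 3 unlettered wt pairs.

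In neil2, where EPCAM fell, the epithelial junction and keratin genes called did not all fall with it. In neil2 in media, 4 of 29 tested epithelial junction and keratin genes rose and 2 fell, where 10.96% of all tested genes were called in either direction. CDH3, for P-cadherin, had 444 ± 67.1 normalised reads in neil2, against 82.7 ± 28.8 in wt, KRT8, for keratin 8, had 5021 ± 1969, against 1099 ± 362, and SPINT2, for a protease inhibitor of epithelia, had 938 ± 31.9, against 470 ± 83.1 (SD, n = 3 each). CLDN1, for a tight junction claudin, and PATJ, for a polarity protein, fell (log2 differences -3.24 and -0.31, adjusted p = 0.0454 and 0.0488, limma). Both overlapped with wt: CLDN1 had 5.86 to 400.4 normalised reads in neil2, against 229 to 307 in wt, so 1 neil2 library lay above all wt libraries, and PATJ had 424 to 478, against 465.6 to 639. The list's median log2 difference was 0.004, and that of all tested genes 0.015.

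Mesenchymal genes rose in neil2 in media in 3 of 29 cases and fell in none, with a list median of 0.27; this count is near the 10.96% of all genes called there. The collagen gene COL3A1 had 53.2 to 253 normalised reads in neil2, against 5.83 to 22.0 in wt, and COL5A2 had 550 to 4380, against 229 to 485. With BSO, where 15.81% of all genes were called, 4 epithelial genes rose and 1 fell, and 3 mesenchymal genes rose and 1, COL6A2, fell. Of 9 tested epithelial transcription and splicing regulators, GRHL1 rose in neil2 in both treatments, and FOXA1 fell with BSO (797 ± 175 against 1207 ± 121). Of 17 further regulators of the transition, 2 fell in media (TCF4 and TEAD1) and 4 with BSO, and none rose.

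In neil123 1 of 29 epithelial junction and keratin genes rose and 1 fell in media, where 5.34% of all tested genes were called, and 2 fell with BSO, where 8.09% were. CGN, for the tight junction protein cingulin, was higher in media (593 ± 63.7 normalised reads in neil123, against 476 ± 40.4 in wt, SD, n = 4 each; log2 difference 0.31, adjusted p = 0.0413, limma). SPINT2 was lower, opposite to neil2, at 236 ± 71.1 normalised reads, against 446 ± 66.8 in wt in media (SD, n = 4 each; log2 difference -0.95, adjusted p = 0.000201, limma). Of 9 tested epithelial transcription and splicing regulators, 2 fell in neil123 in media and 3 with BSO, and none rose. Their median log2 differences were -0.184 and -0.236. FOXA1, a pioneer factor of epithelial genes, was among those lower in media (891 ± 181 against 1318 ± 317, adjusted p = 0.034, limma). Among 29 mesenchymal genes 5 rose and 2 fell in media, and 6 rose and 4 fell with BSO, beside the same 5.34% and 8.09% of all genes. COL5A2 had 3861 ± 1061 normalised reads in neil123, against 306 ± 146 in wt, WNT5A, a secreted WNT ligand, had 678 ± 24.0, against 425 ± 56.1, and the adhesion receptor CD44 had 28.9 ± 13.8, against 130 ± 50.5. List medians in media were -0.20 for epithelial junctions and keratins and 0.04 for mesenchymal genes, beside -0.002 for all tested genes. With BSO the medians of these 2 lists were -0.177 and 0.038, beside 0.011 for all tested genes. Of the 17 further regulators of the transition, FOXC1 rose and TCF12 fell in each treatment.

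No gene of these epithelial, mesenchymal or regulator lists was called in neil1 or neil3, other than ZEB2 in neil3. Of 15 cadherin partners none was called in media in any knockout. With BSO 2 rose and 2 fell in neil2, among them JUP (plakoglobin, lower), beside 15.81% of all genes. AFDN (afadin) rose in neil123 with BSO, beside 8.09% of all genes. Of 18 TGF-beta pathway genes 4 fell in neil2 with BSO, beside 15.81% of all genes called there, and SMAD7, a feedback inhibitor, fell in neil2 in each treatment (163 ± 16.8 against 223 ± 36.7 normalised reads in media). Among 6 tested blood cell genes none was called in neil1, beside 0.300% of all genes in media and 0.202% with BSO. In each treatment 1 fell in each other knockout. The shares of all genes called in media and with BSO were 10.96% and 15.81% in neil2, 0.440% and 0.405% in neil3, and 5.34% and 8.09% in neil123. In media these were TAL1 in neil2 (488 ± 296 against 1193 ± 113), LYL1 in neil3 (17.4 ± 9.27 against 69.3 ± 11.4) and KIT in neil123 (105 ± 60.5 against 417 ± 39.7). The summed level of 11 blood cell genes in media was 2807 to 3132 in neil2, against 3704 to 4068 in wt, and 3840 to 4290 in neil3 and 4016 to 4504 in neil123, against 4074 to 4555 in wt. Their part in the differences above was not tested.

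In the fit without a block, few of these list genes were called for BSO against media. Of 29 epithelial junction and keratin genes, 2 rose and 1 fell in unlettered wt, where 11.16% of all genes were called. In lettered wt (5.62%) and neil3 (6.64%) 2 rose, and in neil123 (1.70%) 1 rose. Of 9 epithelial regulators and of 29 mesenchymal genes, 1 each rose in lettered wt and in neil3. None of these lists had a call in neil1 (1.29%) or neil2 (0.174%). The fit with a block is not given for these lists. F11R, for junctional adhesion molecule A, rose with BSO in unlettered wt, lettered wt and neil3, with 1314, 834 and 853 normalised reads on average, against 1020, 661 and 672 in media. PATJ rose in lettered wt, neil3 and neil123, KLF5 and WNT5A rose in lettered wt and neil3, and DSP (desmoplakin) fell in unlettered wt. Across the 42 libraries EPCAM was most like TFPI2 (r = 0.761), TANC1 (0.752) and SNTB1 (0.75), and TWIST1 was most like PBX3 (0.836), CSMD1 (0.822) and MPP1 (0.821). ZEB1 and ZEB2 had lower top values, with BAIAP2.DT (0.72) and LRRC49 (0.708) first, all computed as for CDH2 and VIM and given with no p.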

How the data were processed

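Total RNA of HAP1 cells was sequenced in 42 libraries. Per the submitters' processing notes, Trim Galore, HISAT2, SAMtools, featureCounts and DESeq2 were used, with the GRCh38/hg38 build; no versions or strand setting are stated in the sources at hand. The authors deposited normalised read counts per gene, a signal on the scale of reads divided by a size factor. Dividing each column by its smallest value gave whole reads for 100% of values (relative tolerance 1e-06). Of 30182 entries, 9667 have no symbol (0.868 to 1.254% of reads) and stayed out. The smallest total of an entry was 10 reads.

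The main test was limma 3.58.1 (R 4.3.3) with an intensity trend on log2(value + 1), over the 14331 named genes that averaged at least 10, in 12 groups of genotype, treatment and label set, with Benjamini-Hochberg adjustment per comparison over all tested genes and a threshold of 0.05. Fold changes on this scale understate those of low genes. The scripts were tested on simulated data. The members and gene lists were chosen with earlier results of these data known, and no p is adjusted over a list alone. All 8 members are named whatever their test; from other lists at most 3 genes per direction and comparison, those with the largest difference and an average of at least 50 where higher, could be named, and the 3 genes with the highest Pearson r per member. The values per kb use the union of GENCODE exons.

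BSO and media libraries share names. Deviations from group means correlated within all 21 same-named pairs (r = 0.193 to 0.849), and each BSO library correlated best with its own media library, so the names pair the libraries. Alternatives were an additive label-set term, only the compared groups, blocks by replicate name or letter, 1 mean per line, pseudocounts of 0.5 and 5, no filter and a minimum mean of 50, equal column totals, edgeR 4.0.16 on whole reads (TMM or deposited size factors), and leaving out each line or library. The floor for a count of 0 covers counting error only, whereas the SDs and SEs include the spread between libraries. Figures were drawn with matplotlib 3.10.9.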

Additional observations from a re-analysis of the deposited data

Results flagged for a closer look

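Among 36 groups of 4 libraries examined for the 6 tested genes, a library lay far from the others in 2, where chance gives about 1 in 20. Lettered wt library 1.1B in media had 1246 normalised reads of ZEB1, against 1077 to 1097 in the other 3. Library 1A of neil123 in media had 18421 normalised reads of VIM, while the other 3 had 16111 to 16341.

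The BSO change of ZEB2 differed between neil2 and unlettered wt by 0.24 on the log2 scale when the replicate name was a block (adjusted p = 0.00882, limma); without the block the adjusted p was 0.288. ZEB2 was higher with BSO in 3 of 3 neil2 pairs and lower in 3 of 3 unlettered wt pairs.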

How the results depend on the processing

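Of 2400 values of single genes under the alternatives, 2324 kept their direction and side of the threshold, 54 lost a call and 22 gained one; no called value changed sign, and 183 values that were not called in either fit did. The cause was not tested for any change below.

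Numbers of the 6 genes called, where they changed: with an additive label-set term, 1 in neil2 with BSO and 0 in neil3 with BSO and for BSO in unlettered wt. With only the compared groups fitted, 0 in neil2 and 0 in neil3 in each treatment, and 0 for BSO in unlettered wt. With the replicate name as a block, BSO against media called 4 in unlettered wt, 1 in neil1, 2 in neil2 and 1 in neil123, and the difference of BSO changes 1 in neil2; the block changed no other count. With the letter as a replicate block in the compared groups, 0 in neil3 in media and 2 with BSO, and 2 in neil123 in media and 3 with BSO; a letter term over all 42 libraries, added after seeing the data, changed none of these from the values in the report. With 1 mean per line, 0 in neil3 in each treatment and 0 in neil123 with BSO. Without a filter on low values, 1 in neil2 with BSO, 0 in neil3 with BSO, 0 for BSO in unlettered wt and 1 for BSO in lettered wt. With equal column totals, and with either edgeR fit, 1 in neil1 in media (ZEB1). Without neil1 line 12, 1 in neil1 in media; without neil2 line 11, 0 in neil2 in each treatment, and without line 12, 2 in media; without neil3 line 1, 0 in each treatment, and without line 2, 0 with BSO; without neil123 line 2, 0 in each treatment.

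Leaving out 1 library at a time gave 0 to 1 called in neil1 in media, 0 to 1 in neil2 in media, 0 to 3 in neil2 with BSO, 0 to 1 in neil3 in each treatment and 0 to 1 for BSO in unlettered wt. Over all genes, the replicate-name block moved the number called from 25 to 1213 for BSO in neil2, 185 to 1581 in neil1 and 1599 to 4545 in unlettered wt, and from 0 to 1490 for the neil2 difference of BSO changes. Lines also moved it: in neil2 in media 1571 became 163 without line 11, and in neil1 in media 43 became 451 without line 13. With 1 mean per line, 765 became 112 in neil123 in media, 1160 became 126 with BSO, 63 became 9 in neil3 in media and 58 became 7 with BSO. Depth limits CDH1, SNAI2 and the lowest EPCAM libraries.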
